A study of Rattus norvegicus with 2 samples.

Results

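The genes described here are 42 genes of the liver's endothelium: markers of sinusoidal endothelial cells, the growth factors these cells release, the receptors they carry, and the adhesion molecules that activated vessels display. They were chosen by name, with earlier results of these data known, and matched to array probes through their RefSeq transcript accessions. Of the 42, 35 had at least 1 named probe, among 13667 named genes on the array. The 7 genes that could not be matched, Stab1, Stab2, Clec4g, Ptprb, Robo4, Wnt2 and Egfl7, were not analysed here.

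Liver RNA of Sprague Dawley rats was hybridised to 1-colour Agilent oligonucleotide arrays. One group had received senecionine, a pyrrolizidine alkaloid, by the intragastric route (i.g.) at 35 mg/kg, and the control group had received sodium chloride. Livers of both groups were taken at 36 h, and tissue of 3 samples was pooled within each group, so that each group is 1 array. The age and sex of the animals are not given in the sources used here. There are no replicates and no test was possible: every difference below is between 2 arrays of 2 pools, and the error beside a log2 ratio is the scanner software's spot error, which is technical. A whole liver sample was measured, in which fewer cells of a type and less RNA per cell cannot be told apart.

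Sinusoidal endothelial cells line the liver's capillaries, and differ from other endothelium by open fenestrae, the lack of a continuous basement membrane and an intense uptake of waste molecules from the blood. They also release Wnt, R-spondin and BMP ligands that set gene expression in neighbouring hepatocytes. Pyrrolizidine alkaloids are known for injury of this cell layer, the sinusoidal obstruction syndrome.

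Hepatocyte markers identified the tissue as liver, since all 8 with a usable probe (albumin and fibrinogen beta among them) were well above background on both arrays. With outlier spots kept these were 12. The arrays themselves differed in sensitivity. Of 43379 non-control spots, 44.4% were well above background for the control pool and 64.1% for the senecionine pool. The weakest signal that passed as well above background was 0.204 in the control and 0.0806 in the senecionine pool, as a multiple of the 75th percentile of that array's non-control spots. All signals below are on this scale. It serves to compare 1 probe between the arrays and not to compare genes with each other.

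Of the 35 endothelial genes with a probe, 23 (65.7%) were well above background on both arrays, against 57.1% of all named genes. A further 6 (17.1%) were so on the senecionine array only, against 19.1% of all named genes, and 6 on neither. Those on neither array were Pecam1, Tek, Cd34, Wnt9b, Sele and Selp, so the pan-endothelial adhesion protein CD31 (Pecam1), the angiopoietin receptor (Tek) and both selectins of activated endothelium gave no usable signal in either pool.

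After senecionine, 7 of these 23 genes were lower by 2-fold or more: Dnase1l3, Mrc1, Kdr, Oit3, Ehd3, Gpr182 and Cldn5. Only Angpt2 and Icam1 were at least 2-fold higher, and 14 lay within 2-fold. Together 28.9% of all 7803 genes detected on both arrays passed 2-fold in either direction. The lower genes made up 30.4% of the 23, where 17.7% of all genes were lower by this rule. The higher ones made up 8.7%, near the 11.2% of all genes. Because the genes were chosen with earlier results of these data known, these shares are no independent comparison with all genes. At 4-fold, 4 endothelial genes were lower (4.63% of all genes) and 1 was higher (2.73% of all genes). The median log2 ratio (senecionine minus control) of the 23 was -0.51, beside -0.14 for all genes, with a range from -4.37 to 2.55. With normexp background correction, which adds an offset to every signal, 4 endothelial genes were lower and 2 higher. Fewer of all 7803 genes passed 2-fold with it as well: 761 were lower and 613 higher, against 1379 and 876 without it.

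**Figure D1:**
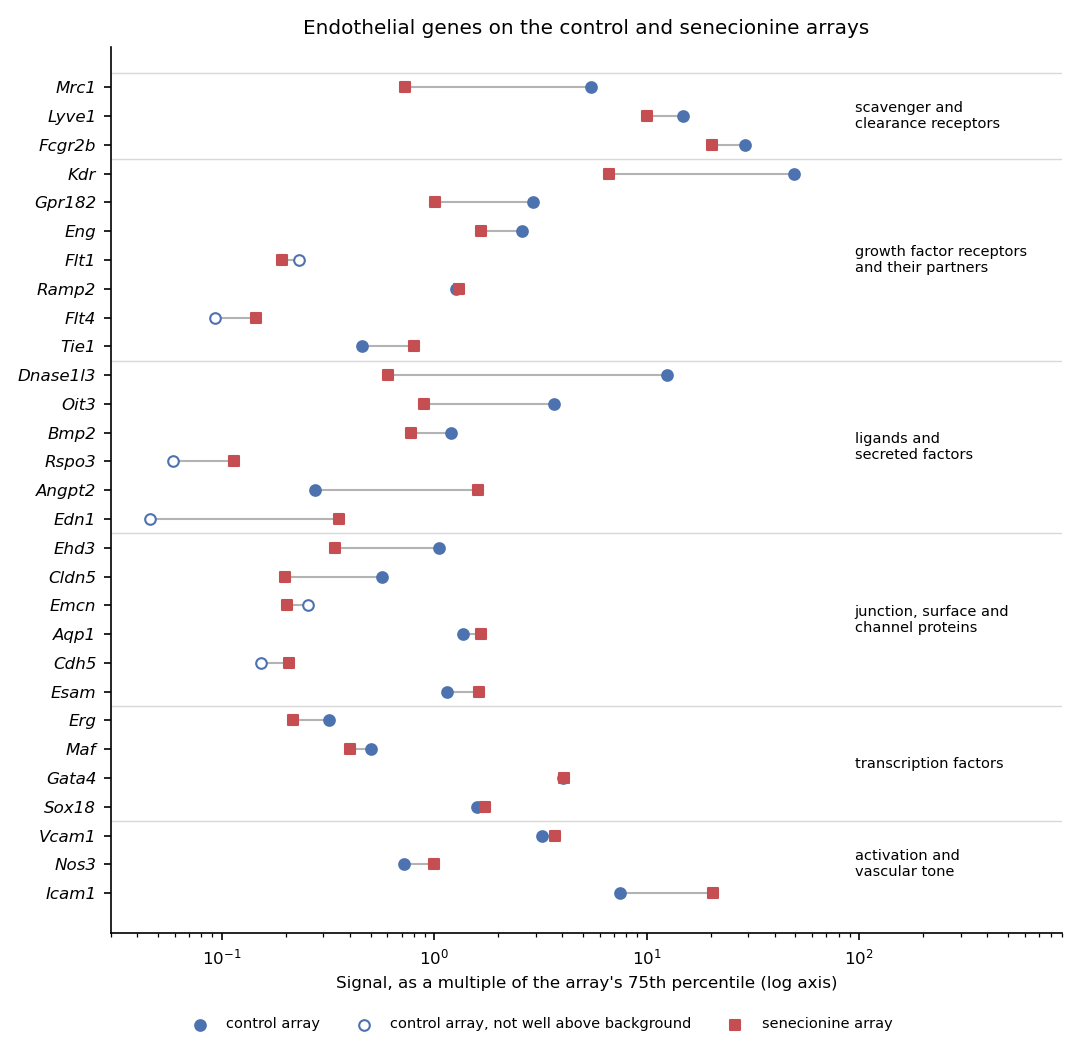
Signal of each endothelial gene that was well above background on at least 1 array, on a log axis as a multiple of the array's 75th percentile, with 1 point per array and the genes grouped by role. Kdr went from 49.3 on the control array to 6.64 on the senecionine array and Dnase1l3 from 12.4 to 0.602, whereas Angpt2 went from 0.274 to 1.61. Open circles are control signals not well above background.

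The promoters of 5 genes that carry these results are shown to let their sequence be read beside the values: Kdr and Mrc1, both far lower, Icam1, which was higher, Edn1, which was detected after senecionine only, and Vcam1, which shares a class of regulators with Icam1 but lay within 2-fold. Each is the 250 bases before the RefSeq start in assembly GRCr8, written from 5′ to 3′ on the gene's strand. Kdr lies at chr14:32571813-32572062 (plus strand), Mrc1 at chr17:82157475-82157724 (plus strand), Icam1 at chr8:27829595-27829844 (plus strand), Vcam1 at chr2:206742784-206743033 (minus strand) and Edn1 at chr17:22666688-22666937 (minus strand). Capitals mark matches, on either strand, to one of 6 motifs. The TATA box was searched as TATAAA. The letters AGATAA stood for a GATA site. Many ETS factors bind around the letters CAGGAA. For STAT factors the search used TTCNNNGAA. The NF-kappaB consensus was searched along with the palindrome GGAAATTCC, a variant of that site.
Kdr: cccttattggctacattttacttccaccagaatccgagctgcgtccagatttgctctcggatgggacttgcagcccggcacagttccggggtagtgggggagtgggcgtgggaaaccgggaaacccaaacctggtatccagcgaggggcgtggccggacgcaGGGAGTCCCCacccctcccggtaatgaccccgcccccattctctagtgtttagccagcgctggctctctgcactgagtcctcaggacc
Mrc1: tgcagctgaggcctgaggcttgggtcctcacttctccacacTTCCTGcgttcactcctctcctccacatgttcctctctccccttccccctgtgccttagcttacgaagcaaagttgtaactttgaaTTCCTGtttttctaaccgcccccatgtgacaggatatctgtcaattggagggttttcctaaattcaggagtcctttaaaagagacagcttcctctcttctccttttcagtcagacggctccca
Icam1: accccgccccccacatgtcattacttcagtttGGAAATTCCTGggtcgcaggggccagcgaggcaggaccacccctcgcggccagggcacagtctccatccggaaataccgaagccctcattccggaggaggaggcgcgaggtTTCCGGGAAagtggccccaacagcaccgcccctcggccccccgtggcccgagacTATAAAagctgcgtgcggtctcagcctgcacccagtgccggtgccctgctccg
Vcam1: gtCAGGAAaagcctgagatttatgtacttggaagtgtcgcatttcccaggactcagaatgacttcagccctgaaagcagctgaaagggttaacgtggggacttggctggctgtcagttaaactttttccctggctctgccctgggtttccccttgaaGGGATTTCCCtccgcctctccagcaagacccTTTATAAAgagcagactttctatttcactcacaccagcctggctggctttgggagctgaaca
Edn1: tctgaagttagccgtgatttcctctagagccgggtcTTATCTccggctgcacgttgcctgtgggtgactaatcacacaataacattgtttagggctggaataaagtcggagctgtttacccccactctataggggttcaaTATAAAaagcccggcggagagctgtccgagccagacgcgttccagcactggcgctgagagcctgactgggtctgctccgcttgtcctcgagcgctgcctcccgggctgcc

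The Icam1 promoter held the palindrome 218 to 210 bases before the start, overlapping a CAGGAA match, a STAT site that ends 99 bases before it and a TATA box. The palindrome is rare: 0.288% of 27457 rat promoters hold it in this window, and among the 30 endothelial genes with a listed promoter Icam1 alone. In Vcam1 the NF-kappaB consensus lay 93 to 84 bases before the start, with overlapping TATA matches downstream of it. That consensus was found in 6.41% of all promoters and in 4 of the 30, namely Vcam1, Eng, Flt1 and Kdr. A TATA box was found in 13.1% of all promoters and in 6 of the 30, and a STAT site in 7.52% and in 1. Edn1 carried a GATA site 214 to 209 bases before its start, where 10% of all promoters and 2 of the 30 hold one. CAGGAA was present in 14 of the 30 against 24.6% of all promoters, and lay at 2 places in Mrc1. The AP-1 site TGANTCA (6.36% of all promoters) and the strong ETS site CCGGAAGT (3.29%) were in none of the 30, and the CRE TGACGTCA (1.7%) in Flt1 alone. These matches describe letters in a window and say nothing on which factor was bound.

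Scavenger and clearance receptors, by which sinusoidal cells remove glycoproteins, hyaluronan and immune complexes, were all lower in value, but only 1 of the 3 detected passed 2-fold. Mrc1, the mannose receptor, had a signal of 5.44 in the control pool and 0.729 after senecionine, a 7.47-fold lower level (log2 ratio -2.90 ± 0.21, spot error). Its other probe gave 0.706 and 0.172, a log2 ratio of -2.03, and with normexp correction Mrc1 was 4.50-fold lower. Lyve1, a hyaluronan receptor, went from 14.7 to 10.04 (-0.55 ± 0.20), and its dimmer probe gave -1.02, just past 2-fold. The inhibitory Fc receptor Fcgr2b went from 29.1 to 20.4 (-0.51 ± 0.20). Thus 3 receptors of 1 functional class, read on the same arrays, spanned from -0.51 to -2.90.

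Mrc1 and Fcgr2b are also made by macrophages. Of 9 Kupffer cell markers with a probe, 8 could be compared, and 5 of these were lower by 2-fold or more and 1 higher. Among all 7803 genes, 17.7% were lower and 11.2% higher by this rule. The median log2 ratio of the 8 was -2.01, or -1.46 with normexp correction. Clec4f, a Kupffer cell lectin, had a log2 ratio of -3.17, and the complement subunit C1qb one of -2.02, while Cd68 had 1.06 (0.94 when arrays were scaled by their median). Cd163 was not well above background on either array. The part of macrophages in the Mrc1 value was not tested.

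Growth factor receptors were led by Kdr, the main signalling receptor for VEGF-A on endothelium. Its signal was 49.3 in the control pool and 6.64 after senecionine, 7.42-fold lower (-2.89 ± 0.20), the 118th lowest ratio of the 7803 genes. Gpr182, an atypical receptor that clears chemokines, went from 2.92 to 1.01, 2.89-fold lower (-1.53 ± 0.21). Endoglin (Eng), a co-receptor for BMP ligands, went from 2.59 to 1.66 (-0.64 ± 0.21), within 2-fold. Tie1, the orphan partner of the angiopoietin receptor, stood on the other side, from 0.456 to 0.798 (0.81 ± 0.24), and its second probe gave 0.82. Ramp2, which turns the calcitonin-like receptor into an adrenomedullin receptor, was 1.26 and 1.31 (0.05 ± 0.21), within its spot error, and its sign turned when arrays were scaled by their median.

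The other VEGF receptors were too dim on the control array for a ratio. Flt1, the decoy-like receptor, had 0.230 in the control pool, not well above background, and 0.191 after senecionine. Flt4, the receptor of VEGF-C, had 0.0931, again not well above background, and 0.144. Neither gives a bound above 1 on its change, so the lower signal of Kdr cannot be set against its sister receptors.

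Secreted factors showed the widest spread of the groups. Dnase1l3, a nuclease that sinusoidal cells release to digest DNA in blood, went from 12.4 to 0.602, a 20.7-fold lower level (-4.37 ± 0.21), and was the 33rd lowest ratio of all 7803 genes. With normexp correction its log2 ratio was -3.41. Oit3, a secreted zona pellucida domain protein used as a sinusoidal marker, went from 3.67 to 0.890, 4.12-fold lower (-2.04 ± 0.21). Bmp2, the ligand that makes hepatocytes express the iron hormone hepcidin, went from 1.19 to 0.776 (-0.62 ± 0.23) and stayed within 2-fold. Rspo3, the R-spondin that supports Wnt signalling around the central vein, had 0.0589 in the control pool, not well above background, and 0.114 after senecionine, with no bound above 1.

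Angpt2, the antagonist ligand of Tek that endothelial cells release on activation, had the highest ratio of the 23 genes under every setting but normexp correction. Its signal was 0.274 in the control pool and 1.61 after senecionine, 5.87-fold higher (2.55 ± 0.31). The control signal was close to the weakest that passed as well above background on that array, 0.204. With normexp correction Angpt2 was 2.64-fold higher, below Icam1 at 3.05-fold. A second Angpt2 probe passed background after senecionine only (0.0449 and 0.154), and the remaining probe in neither pool.

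Edn1, the vasoconstrictor endothelin, passed background after senecionine only. Its probe is spotted 10 times. The spots lay between 0.0424 and 0.0550 in the control pool, where 7 were kept and none passed background, and between 0.315 and 0.384 after senecionine. The level was at least 1.74-fold higher, taking the bright signal against the lowest signal called well above background on the control array.

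**Figure D2:**
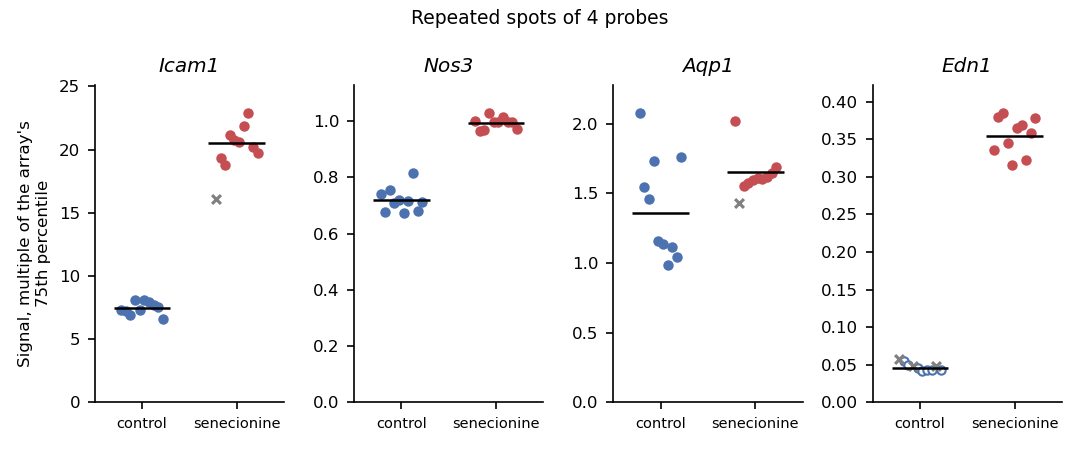
Signals of the single spots of the 4 probes that are spotted 10 times on each array, as a multiple of the array's 75th percentile, with a line at the geometric mean and crosses for spots left out as outliers. Spots of Icam1, Nos3 and Edn1 separate the arrays, those of Aqp1 overlap, and open circles are spots not well above background.

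Junction and surface proteins split. Ehd3, an endocytic membrane protein known as a sinusoidal marker, went from 1.05 to 0.341, 3.09-fold lower (-1.63 ± 0.23). Claudin-5 (Cldn5), a tight junction protein, went from 0.566 to 0.197, 2.87-fold lower (-1.52 ± 0.27). With normexp correction Ehd3 was 1.83-fold and Cldn5 1.56-fold lower, both within 2-fold. The junctional protein Esam went the other way, from 1.15 to 1.62 (0.50 ± 0.21). Aqp1, a water channel, gave 0.985 to 2.07 over its kept spots in the control pool and 1.55 to 2.02 after senecionine, and the spots overlap (0.28 ± 0.21). VE-cadherin (Cdh5) passed background after senecionine only, with 0.152 in the control pool and 0.206 after it. The bound on its change was 1.01-fold, but its log2 ratio of 0.44 ± 0.46 lay within its spot error, so no direction is given. Endomucin (Emcn) was likewise detected on the senecionine array only, at 0.203, and had 0.253 on the control array.

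Cldn5 is also known from the vessels of the brain, and both arrays carried signal of nervous system genes. Of 27 brain markers with a probe, 15 could be compared and 7 were well above background on neither array. A further 3 passed background on the control array only and 2 on the senecionine array only. Of all 13667 named genes, 169 passed on the control array only and 19.1% on the senecionine array only. Of the 15, 12 were lower by 2-fold or more and 1 (Npy) was higher, beside 17.7% and 11.2% of all genes. The median of the 15 was -2.52 (-1.59 with normexp correction). A list of 13 brain vessel markers had 6 to compare, with 3 lower (2 with probes averaged), 1 higher and a median of -0.95 (-0.37 on the dimmest probes). The lower ones were Slco1a4 (-2.45), also a hepatocyte transporter, Mfsd2a (-1.52, or -0.35 on its dimmest probe) and Spock2. Spock2, named after its value was seen, went from 8.47 to 0.482 (-4.14), and its dimmest probe was 2.63-fold lower. Slc2a1, the glucose carrier, was the higher one at 2.33. Slco1c1, Abcb1a and Lef1 were well above background on neither array. The part of brain RNA in the Cldn5 value was not tested.

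Transcription factors of endothelium lay within 2-fold in 4 of 4 cases, as did 5548 of the 7803 genes. Erg, an ETS factor that maintains endothelial identity, went from 0.318 to 0.215 (-0.56 ± 0.30), and Maf, a factor of the sinusoidal programme, from 0.501 to 0.399 (-0.33 ± 0.27). Gata4, which directs sinusoidal against continuous endothelium and is also made by stellate cells, was 4.01 and 4.09 (0.03 ± 0.20). Sox18 was 1.59 and 1.73 (0.13 ± 0.21), and its second probe gave 0.19. The values of Gata4 and Sox18 lay within their spot error, and both changed sign under other scalings.

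Activation genes were represented by 3 genes on both arrays. Icam1, the ligand of leukocyte integrins, gave 6.62 to 8.08 over its kept spots in the control pool and 18.8 to 22.9 after senecionine, so that no spots overlapped. It was 2.76-fold higher (1.46 ± 0.20). Vcam1, the ligand of integrin alpha-4, went from 3.22 to 3.68 (0.19 ± 0.21), within its spot error. Endothelial nitric oxide synthase (Nos3) gave 0.673 to 0.815 and 0.965 to 1.03 over its spots, which do not overlap, but its log2 ratio of 0.47 ± 0.23 lay within 2-fold. Spots of 1 array repeat the hybridisation and not the animals.

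**Figure D3:**
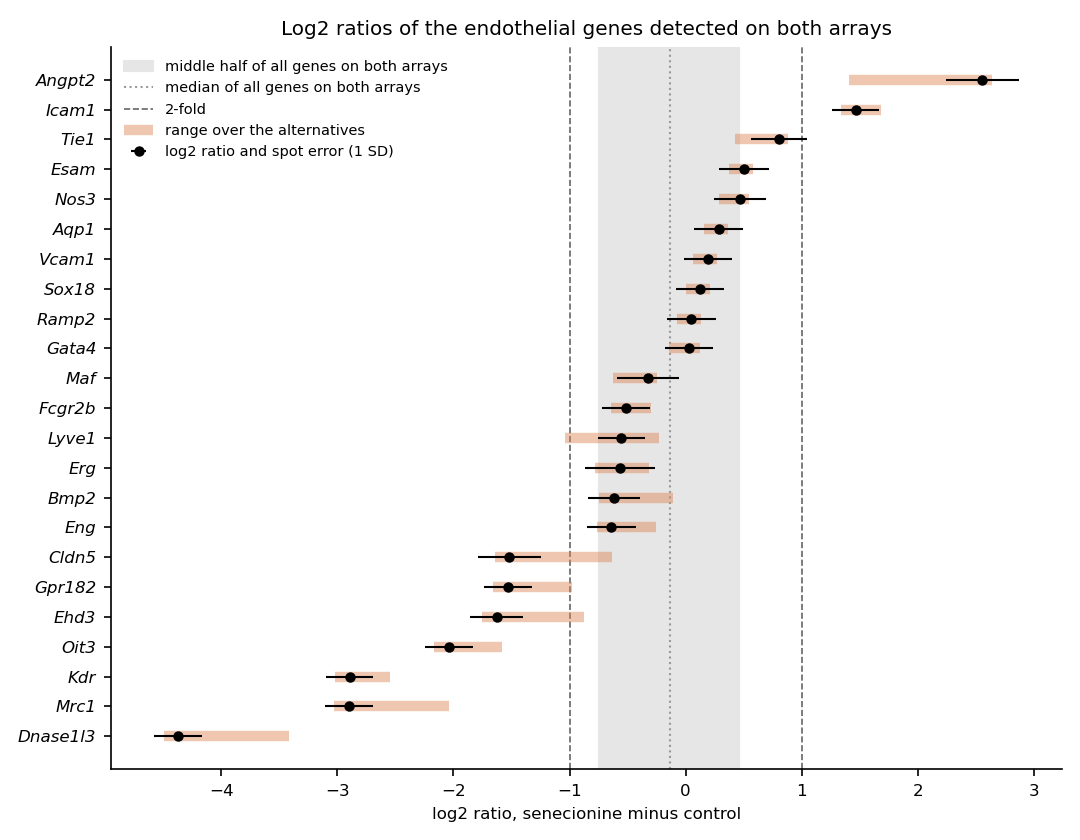
Log2 ratio (senecionine minus control) of the 23 endothelial genes on both arrays, with spot error bars, the range over alternative processing as wide bars, and the quartile range of all genes shaded. Dnase1l3, Mrc1, Kdr and Oit3 stay beyond 2-fold lower over the whole range, Angpt2 and Icam1 beyond 2-fold higher.

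**Figure D4:**
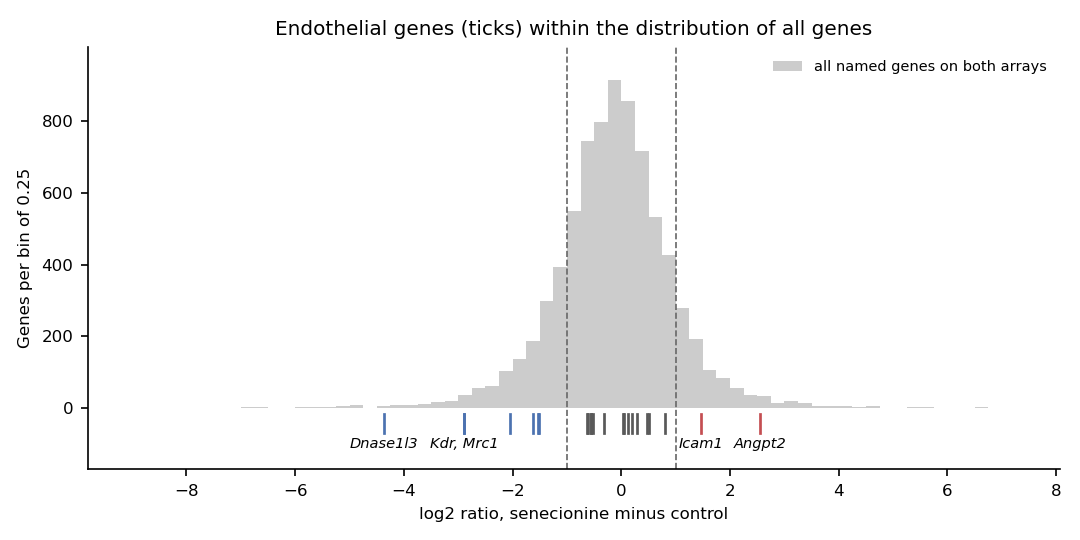
Number of genes per bin of log2 ratio (width 0.25) for all 7803 genes on both arrays, with a tick below for each of the 23 endothelial genes. The ticks reach from -4.37 for Dnase1l3 to 2.55 for Angpt2, and 14 lie between the dashed 2-fold lines.

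The authors' deposited table, a list of log2 values selected at 2-fold, holds 11 probes of 10 of these genes. In the authors' deposited table, 2 genes were higher, Angpt2 by 2.64 and Icam1 by 1.68, and 8 were lower. The lowest there were again Dnase1l3 (-4.32), Mrc1 (-2.88) and Kdr (-2.69). The eighth lower gene in the authors' deposited table was Lyve1, through its dimmer probe (-1.04). It comes from the same arrays and adds no separate measurement.

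Other genes of the same pathways were then read, in the background of the same 11.2% higher and 17.7% lower genes. Among ligands and receptors of VEGF, angiopoietin, Notch and BMP signalling, 3 of the 12 that could be compared passed 2-fold upward and none downward (1 downward, Hey1, with median scaling or cyclic loess). Another 12 of the 25 with a probe passed background after senecionine only, against 19.1% of all named genes. Signals down to 0.0806 passed on that array and down to 0.204 on the control array, so these 12 are no count of higher genes. Apelin (Apln), a peptide of sprouting endothelium, went from 0.543 to 9.23, 17.0-fold higher (4.09 ± 0.23), or 10.3-fold with normexp correction. Vegfa, the ligand of Kdr, went from 0.577 to 1.99, 3.44-fold higher (1.78 ± 0.24), though 2.15-fold with normexp correction and 0.73 in log2 on its dimmest probe. Notch4, an endothelial Notch receptor, was 2.70-fold higher (1.43 ± 0.25), or 0.80 with normexp correction, and the Notch target Hey1 had a log2 ratio of -0.95. The ligand Vegfa and the receptor Kdr thus had ratios of opposite sign on these arrays.

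In the Wnt and R-spondin list 2 of 8 were lower and none higher, with a median of -0.57. Both are Wnt targets of pericentral hepatocytes: Notum, a Wnt-inactivating enzyme, at -3.47 ± 0.22, and Cyp2e1 at -2.18 ± 0.20. With normexp correction Notum was 4.93-fold lower, against 11.1-fold without it. Glul, glutamine synthetase, another Wnt target of pericentral hepatocytes, stood on the other side at 0.64 ± 0.20 (6.05 and 9.43) and is named after its value was seen. Tbx3 and the co-receptor Lrp5 had -0.80 and -0.70. The endothelial Wnt9b could not be read on either array, so the ligand side is missing here.

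Genes of vascular tone had no common direction, with 3 higher (4 under quantile normalization, cyclic loess, normexp correction or scaling on detected probes) and 2 lower (1 with normexp correction) of 15 and a median of -0.06 that turned to 0.02 when scaled on detected probes and to 0.19 with outlier spots kept. Adrenomedullin (Adm), the vasodilator ligand of the receptor that Ramp2 helps to form, went from 0.910 to 11.6, 12.8-fold higher (3.68 ± 0.22). The endothelin receptor Ednrb went from 0.367 to 1.62, 4.42-fold higher (2.14 ± 0.27) or 2.16-fold with normexp correction, and the caveolar protein Cav2 was 3.02-fold higher. Agtr1a, the angiotensin receptor, was 3.19-fold lower (-1.67 ± 0.20). The other endothelin receptor, Ednra, named after its value was seen, had -0.94.

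Of 9 leukocyte adhesion partners, 4 were higher (3 with median scaling) and 1 lower. Cd44, a hyaluronan receptor of leukocytes and injured epithelium, went from 1.21 to 23.7, 19.6-fold higher (4.29 ± 0.21). The integrin chains Itgb1 and Itgb2, the latter the leukocyte partner of Icam1, were 4.25-fold and 3.31-fold higher. Jam2 had -1.39 ± 0.23 on its brightest probe, but 0.16 on its dimmest and 0.02 with normexp correction, so it has no settled direction. All 4 neutrophil and monocyte markers that could be compared passed 2-fold upward (3 with median scaling or normexp correction), against 11.2% of all genes. The 3 brightest, Lcn2, S100a8 and S100a9, had log2 ratios of 5.72, 6.28 and 6.53, and the lowest of the 4 was 1.03. Of the 9 with a probe, 5 passed background after senecionine only, against 19.1% of all named genes. The part of neutrophils and monocytes in the adhesion genes was not tested.

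Of 7 endothelial haemostasis genes, 4 were higher and none lower. Procr, the endothelial protein C receptor, went from 0.240 to 4.92, 20.5-fold higher (4.35 ± 0.34). Its control signal was close to the weakest signal above background, and with normexp correction it was 7.49-fold higher. Annexin A2 (Anxa2) and its partner S100a10, which together bind plasminogen activators and are made by many cell types, were 17.8-fold and 8.74-fold higher. Thrombomodulin (Thbd) was 2.79-fold higher (1.48 ± 0.21).

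Endothelial markers outside the 42 genes did not follow 1 direction, with 6 higher and 4 lower of 20 and a median of 0.30. Among the higher ones, Thbd is also counted with the haemostasis genes and Cd36 with those of scavenging. Sparcl1, a matrix-associated glycoprotein of vessels also abundant in brain, was 7.90-fold lower (-2.98 ± 0.21), or 3.79-fold with normexp correction. Podxl, a surface sialomucin, was 4.28-fold and the flow-responsive factor Klf4 4.37-fold higher. The cathepsin Ctsl was 4.84-fold higher, but its log2 ratio was 0.92 when outlier spots were kept. Of the genes of scavenging and endocytosis, 4 were higher (2 with normexp correction) and 3 lower of 16 (median 0.02, and -0.11 with median scaling). There the lipoprotein receptors Scarb1 and Lrp1, both also of hepatocytes, were 3.50-fold and 2.73-fold lower, and the scavenger receptors Cd36 and Msr1 3.27-fold and 3.52-fold higher, Msr1 at a log2 ratio of 0.71 with normexp correction.

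**Figure D5:**
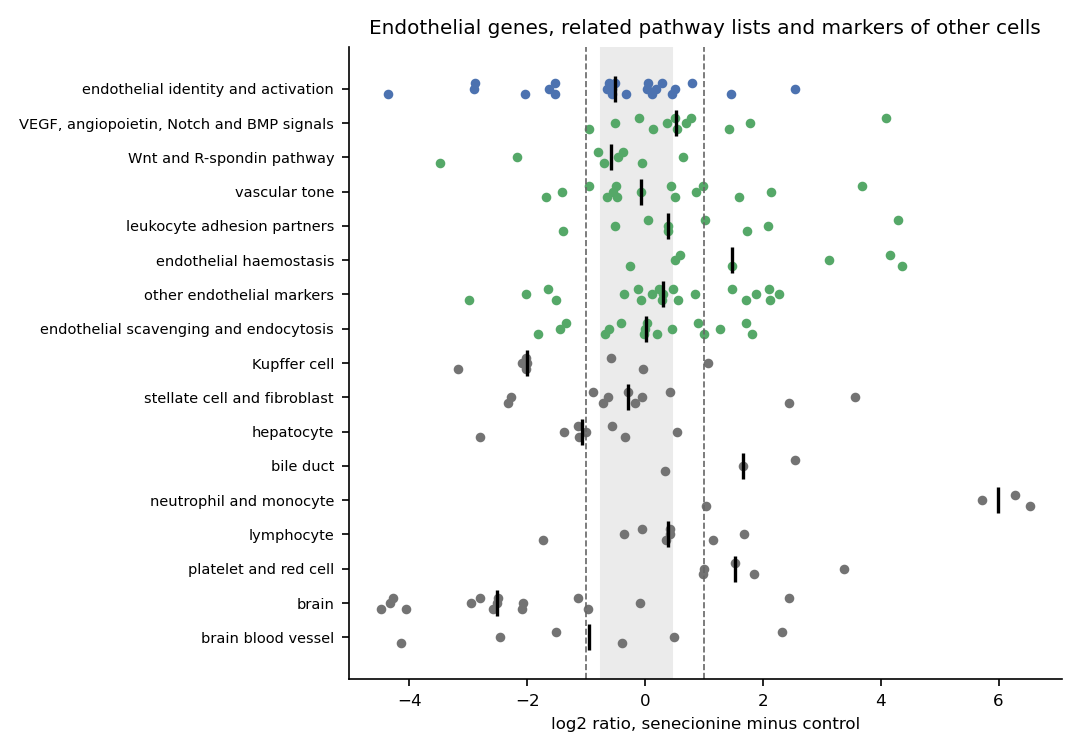
Log2 ratios (senecionine minus control) of single genes detected on both arrays, for the endothelial genes at the top, related pathway lists and markers of other cells, with a bar at each list's median and the quartile range of all genes shaded. The endothelial median is -0.51, the haemostasis median 1.48 and the Kupffer cell median -2.01.

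Markers of the remaining cell types were read in the same way, beside 11.2% higher and 17.7% lower of all genes. Among 11 markers of stellate cells and fibroblasts, 2 were higher and 2 lower (1 with normexp correction, 3 with median scaling), with a median of -0.29. The higher ones were Dcn (3.56) and Des (2.44), the lower ones Lrat (-2.33) and Hhip (-2.27), all named after their values were seen. The collagens Col1a1 and Col3a1 had -0.17 (positive in 5 of the alternatives) and -0.88. Among 8 hepatocyte markers 5 were lower (2 under quantile normalization, cyclic loess or normexp correction) and none higher (1 under quantile normalization), with a median of -1.07 and Alb at -1.14. With outlier spots kept, 12 hepatocyte markers could be compared, 6 of them lower, with a median of -0.88. Platelet and red cell markers were higher in 3 of 5 (5 under cyclic loess or scaling on detected probes), among them Pf4 at 3.37. Bile duct markers were higher in 2 of 3 (1 with normexp correction), among them Epcam at 2.54, or 1.67 with that correction. Among 8 lymphocyte markers 2 were higher (0 with normexp correction) and 1 lower, with a median of 0.39 (0.14 with that correction) and Cd3d at 0.43.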

How the data were processed

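The authors deposited 1 Agilent scanner file per array, from Agilent Feature Extraction, whose version the submitters' processing notes give as 10.7.3.1; its intensity values are background-subtracted and detrended within the array, per the file headers, and not scaled between arrays. The authors' deposited table of log2 values holds 7404 probes, with column medians of 6.03 (control) and 6.10 (senecionine); how it was scaled is unknown here. Its direction was checked against the scanner signals: all 7355 probes compared had the same sign.

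The processed signals were put on a log2 scale relative to the 75th percentile of the array's non-control spots and averaged over the spots of a probe, without control and outlier spots (522 and 497 left out). Probes were named by unversioned RefSeq accession through the GRCr8 gene table (17250 of 40516 probes). The array design names build rn4, so no array coordinates are given. A repeated probe counted as well above background where at least 0.5 of its kept spots were. The brightest probe detected on both arrays stood for a gene. With 1 array per group, genes were counted at 2-fold, with no p-value. For a gene detected on 1 array, the bound divides the bright signal by the dim one or, if larger, by the lowest signal well above background.

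All 42 genes were accounted for. From each pathway list the 4 genes with the largest absolute ratio were named, and from each marker list genes from the 3 brightest. Exceptions are genes at which a result turns and those said to be named after their values were seen. The members and lists were chosen with earlier results of these data known. Counting was tested on simulated data. Alternatives were other scalings, normexp correction (offset 50, on median spot signals), filters, probe rules, thresholds and the authors' values. Scripts ran in R 4.3.3 with limma 3.58.1 and in Python 3.11.15 with pandas 2.3.3, numpy 2.4.6 and, for plots, matplotlib 3.10.9. Precision is limited by the number of arrays. The median spot error over all genes was 0.21, and the 154 repeated probes had a median SD over spots of 0.14 (control) and 0.10 (senecionine) in log2 units.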

Additional observations from a re-analysis of the deposited data

How the results depend on the processing

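The counts of 7 lower and 2 higher endothelial genes were the same under scaling by the median, by detected probes, quantile normalization and cyclic loess, with outlier spots kept and with probes averaged. With the dimmest probe 8 were lower. With normexp correction 4 were lower (Cldn5, Ehd3 and Gpr182 fell short, at -0.64, -0.87 and -0.98) and the median was -0.23. With detection on at least 1 array the median was -0.27, with 3 higher, and with no filter it was 0.0495. The authors' deposited values, selected at 2-fold, gave a median of -1.63. A 4-fold threshold left 4 lower and 1 higher. No gene past 2-fold changed sign. Of the 14 genes within 2-fold, 3 did (Gata4, Ramp2 and Sox18). Over the 23 genes and these alternatives, 219 single values moved by less than the gene's spot error and 21 by more. Most of the values could not move by more. Filters and probe rules left genes with 1 usable probe as they were. Scaling by the median or by detected probes shifted all genes by the same amount, below every spot error. The tally is therefore no measure of robustness. The median over all genes was -0.14, and -0.26 with median scaling. The endothelial median minus the median over all genes was -0.38, or -0.24 under quantile normalization, -0.30 under cyclic loess, -0.17 with normexp correction and 0.11 with no filter. No paired analysis was possible because each group has 1 array. Left-out replicates were not possible for the same reason. Genes below background in the control pool have no ratio, and its array had the higher background noise.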
